A study of Mus musculus with 55 samples.

Results

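BCL2 family proteins decide whether a cell commits to apoptosis through its mitochondria. Anti-apoptotic members (BCL2, BCL-XL, MCL1, BCL-W and A1) hold the effectors BAX and BAK in check, and BH3-only proteins such as BIM, BID, BAD and BMF bind the anti-apoptotic members or engage the effectors when a cell is stressed or loses growth factors. MCL1 is short-lived and needed for the survival of hematopoietic stem cells, whereas BCL2 is known for sustaining lymphoid cells.

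The transcripts of 10 genes of this family were followed here: the anti-apoptotic Bcl2, Bcl2l1 (encoding BCL-XL), Mcl1, Bcl2l2 (BCL-W) and Bcl2a1b (a mouse copy of A1), the effector Bak1, and the BH3-only Bcl2l11 (BIM), Bid, Bad and Bmf. They were chosen by symbol and matched 10 of the 55421 genes in the count table, with 1 row each. The other effector, Bax, and the BH3-only genes Bbc3 and Pmaip1 were not examined here.

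RNA-seq had been performed on 6 populations sorted by FACS from mouse bone marrow: hematopoietic stem cells of the long-term (LT-HSC) and short-term (ST-HSC) kind, the common progenitors of the myeloid (CMP) and lymphoid (CLP) lineages, and the progenitors of granulocytes and macrophages (GMP) and of megakaryocytes and erythroid cells (MEP). Mice were labelled WT or Tet2 knockout. The study bred Tet2 f/f mice with Mx1-Cre, whose interferon-responsive promoter was induced by poly(I:C) in young animals months before analysis, and Tet2-/- here means these mice. Mx1-Cre acts in all blood lineages and in other interferon-responsive tissues. The labels do not say whether WT mice carried the floxed allele or Mx1-Cre or received poly(I:C), and give no age, so these cannot be told apart from the loss of Tet2. There were 46 libraries, 3 each for the LT-HSCs and ST-HSCs of WT mice and 4 for every other group. Each was made by a SMART-seq protocol from a small number of sorted cells. The question was how the level of each member differed among the populations, and whether loss of Tet2, an enzyme that oxidizes methylated cytosine in DNA, moved it within a population.

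Libraries held 50458473 to 102148079 counts. Levels are given as CPM, the count relative to library size after scaling by the trimmed mean of M values (TMM), and values for single libraries follow the replicate numbers 2, 3, 4 and 5, where WT LT-HSC and WT ST-HSC lack number 4. Tet2 itself was read at 2.33 to 41.2 CPM in WT and 6.05 to 72.5 CPM in Tet2-/- libraries; the row covers the whole gene, so it does not separate the deleted part and checks no label. The sum of each population's own markers was highest in that population for LT-HSC, ST-HSC, GMP, MEP and CLP, while the CMP markers summed to 769 CPM in CMPs and 1178 CPM in GMPs. The CLP sum was almost wholly Ighm, at 144885 to 277425 CPM of 145783 to 278526 CPM in WT CLPs.

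The CLP libraries stood apart. Ighm, Igkc and Jchain, immunoglobulin transcripts picked after their values were seen, took 17.3% to 31.7% of all counts in WT CLPs. In Tet2-/- CLPs they took 0.0721% in replicate 2, then 7.60%, 21.2% and 24.3%. In the other 38 libraries the share lay between 0.000306% and 0.0218%. CLP libraries had 13754 to 16903 detected genes against 17586 to 20964 elsewhere, and TMM factors of 0.515 to 1.08 against 0.946 to 1.19. Il7r, which encodes the receptor that defines the gate, was at 371 to 650 CPM in WT and 231 to 1120 CPM in Tet2-/- CLPs, whereas Rag1, a recombinase gene of lymphoid progenitors, was at 0 in 4 of 4 WT CLP libraries. Flt3, a cytokine receptor gene of early lymphoid progenitors, had a median of 56.2 CPM in WT and 102.6 CPM in Tet2-/- CLPs against a highest mean of 96.4 CPM elsewhere. Other lymphoid progenitor genes were above the other populations in the WT median: Dntt at 396 CPM against a highest mean of 69.8 CPM elsewhere, Rag2 at 14.9 against 4.52 CPM and Notch1 at 53.7 against 30.0 CPM. Cd79a, a B cell receptor component, was at 293 to 646 CPM in WT CLPs and 39.4 to 297 CPM in Tet2-/- CLPs. The part of these transcripts in the results was not tested, and no fit left them out. The counts of members in the tests across populations are given with and without the CLP libraries, and single pairs of populations are given from fits with them.

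**Figure D1:**
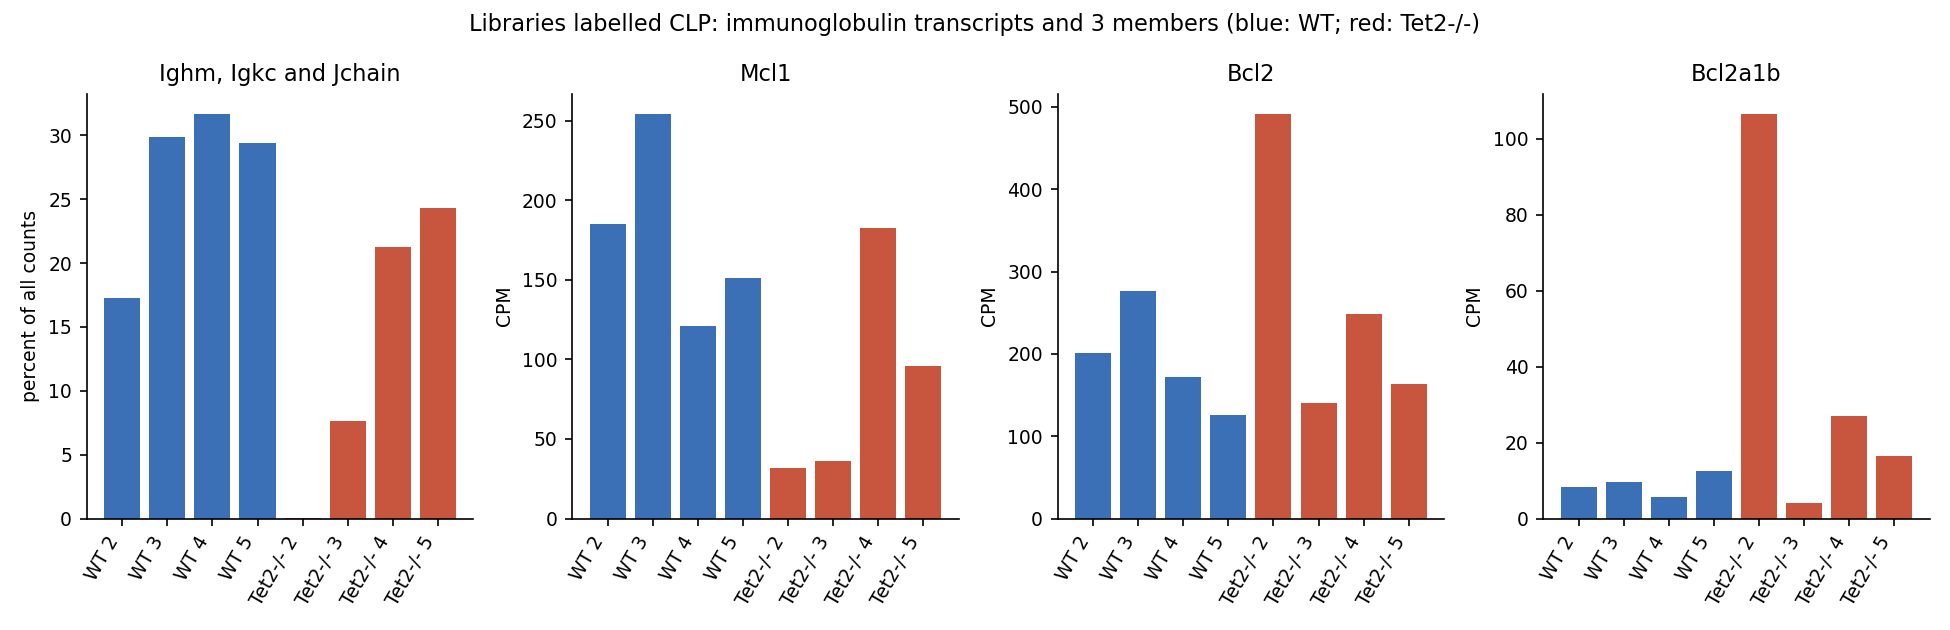
The 8 libraries labelled CLP, WT in blue and Tet2-/- in red, with the percent of all counts taken by Ighm, Igkc and Jchain (left) and the CPM of Mcl1, Bcl2 and Bcl2a1b, each bar being 1 library. Tet2-/- replicate 2 has an immunoglobulin share of 0.0721%, the highest Bcl2 (492 CPM) and Bcl2a1b (107 CPM), and the lowest Mcl1 (31.6 CPM).

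Among WT populations, Bcl2, Mcl1, Bcl2l1, Bak1, Bcl2a1b and Bid differed, 6 of the 10 members, at an adjusted p under 0.05 in the edgeR quasi-likelihood F test fitted over all 22360 genes tested, a test that 42.0% of those genes passed. In Tet2-/- mice the same 6 and Bcl2l11 differed, 7 of 10, against 44.4% of all genes. Without the CLP libraries the count was 5 in WT, with Bcl2a1b no longer past the threshold (adjusted p = 0.272), and 6 in Tet2-/-, with Bcl2l11 no longer past it (adjusted p = 0.815). The backgrounds were then 44.7% and 51.4%. Bcl2l2, Bad and Bmf passed in neither genotype. In these bulk samples, fewer cells of a type and less RNA per cell cannot be told apart.

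Bcl2 was lowest in MEPs and highest in CLPs. In WT mice it was read at 39.5, 40.0 and 41.8 CPM in LT-HSCs and at 38.5, 36.2 and 18.6 CPM in ST-HSCs. CMPs gave 64.4, 75.5, 72.9 and 62.2 CPM, and GMPs gave 55.8, 45.6, 29.6 and 41.7 CPM. MEPs gave 4.38, 8.29, 8.29 and 7.55 CPM, and CLPs gave 201, 276, 171 and 126 CPM. No MEP library reached the lowest value of any other WT population, and with TMM no CLP library fell to the highest value of another. In order of the mean, WT CLPs were at 194 ± 62.9 CPM (SD, n = 4), CMPs at 68.7 ± 6.47 (n = 4), GMPs at 43.2 ± 10.8 (n = 4), LT-HSCs at 40.4 ± 1.19 (n = 3), ST-HSCs at 31.1 ± 10.9 (n = 3) and MEPs at 7.13 ± 1.87 (n = 4). Of neighbours in this order, CLPs exceeded CMPs (edgeR adjusted p = 0.000951) and ST-HSCs exceeded MEPs (edgeR adjusted p = 2.63e-05), and the 3 steps between CMPs and ST-HSCs were not called. From CMPs to MEPs the log2 fold change was -3.26 (edgeR adjusted p = 1.32e-08, SE 0.35), and from MEPs to CLPs it was 4.76 (edgeR adjusted p = 2.21e-12, SE 0.38). In Tet2-/- mice the order was CLPs at 261 ± 161 CPM, GMPs at 69.4 ± 5.62, CMPs at 59.6 ± 0.761, LT-HSCs at 46.02 ± 17.6, ST-HSCs at 28.7 ± 6.41 and MEPs at 7.58 ± 3.53 (SD, n = 4 each), and again the first and the last step were called (edgeR adjusted p = 0.00011 and 4.69e-05). On library totals without TMM factors the WT CLP mean was 119 CPM against 77.4 in CMPs. It stayed the highest of the 6 means, but the gap was under 2-fold and the CLP and CMP libraries overlapped.

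Mcl1 followed another order, high in the stem cells and low in GMPs and MEPs. WT LT-HSCs gave 177, 211 and 169 CPM and WT ST-HSCs 204, 245 and 205 CPM. WT CMPs gave 103, 98.9, 107 and 98.0 CPM, GMPs 54.7, 51.8, 49.6 and 45.5 CPM, and MEPs 49.7, 59.6, 42.3 and 41.3 CPM. The LT-HSC and ST-HSC libraries all lay above the CMP libraries, and these all lay above the GMP and MEP libraries. WT CLPs were wider, at 185, 254, 121 and 151 CPM. Against CMPs, Mcl1 was lower in MEPs by a log2 fold change of -1.07 (edgeR adjusted p = 0.0374). Against LT-HSCs, it was lower in GMPs by a log2 fold change of -1.88 (edgeR adjusted p = 0.000146, SE 0.35) and in MEPs by -1.94 (edgeR adjusted p = 0.000113, SE 0.35). In the fit of all 46 libraries no step between neighbours was called in WT. The closest were CLPs to CMPs (edgeR adjusted p = 0.0724) and CMPs to GMPs (edgeR adjusted p = 0.0923). Among Tet2-/- populations the means were 190 ± 54.8 CPM in ST-HSCs, 184 ± 31.2 in LT-HSCs, 86.5 ± 70.3 in CLPs, 74.1 ± 12.8 in CMPs, 49.4 ± 16.2 in MEPs and 46.4 ± 10.6 in GMPs (SD, n = 4 each), and the step from LT-HSCs to CLPs was called (edgeR adjusted p = 0.0139), though not with a replicate block. On library totals the WT CLP mean was 111 CPM rather than 178, below the 114 CPM of WT CMPs on that scale, so the place of CLPs in the order of Mcl1 depends on the scaling.

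Bcl2l1 resembled Bcl2 at a lower level. Its WT means were 31.0 ± 23.6 CPM in CLPs (SD, n = 4), 11.6 ± 2.34 in LT-HSCs (n = 3), 11.4 ± 1.66 in GMPs (n = 4), 10.6 ± 2.06 in CMPs (n = 4), 7.48 ± 3.83 in ST-HSCs (n = 3) and 2.26 ± 1.21 in MEPs (n = 4). All 4 WT MEP libraries, at 1.64, 1.14, 3.93 and 2.33 CPM, lay below the lowest library of every other WT population. MEPs were lower than ST-HSCs (edgeR adjusted p = 0.0163). CLPs were higher than LT-HSCs (edgeR adjusted p = 0.0441, not called with a replicate block), although WT CLPs spread from 10.96 to 61.9 CPM and reached down among the LT-HSC libraries. On library totals the WT means were 19.4 CPM in CLPs and 12.8 CPM in LT-HSCs, a gap under 2-fold. Neither end of the order was called in Tet2-/- mice, where ST-HSCs had a mean of 4.29 CPM against 2.19 CPM in MEPs (edgeR adjusted p = 0.150) and CLPs 35.3 CPM against 14.4 CPM in GMPs (edgeR adjusted p = 0.0691).

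Bcl2l2 was low throughout, with WT means from 1.962 CPM in CLPs to 6.52 CPM in LT-HSCs, and no pair of populations was called in either genotype. In WT CLPs it was at 0, 0.0750, 0 and 7.77 CPM, so that mean rests on 1 library.

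Bcl2a1b had its highest means in CLPs, at 8.18, 9.55, 5.63 and 12.5 CPM in WT CLPs against at most 1.97 CPM in the other WT libraries. WT CLPs were called above CMPs (edgeR adjusted p = 0.0317) and MEPs (edgeR adjusted p = 0.00218) but not above LT-HSCs, ST-HSCs or GMPs (edgeR adjusted p = 0.166, 0.154 and 0.107). Tet2-/- CLPs were called above all 5 other populations, among them LT-HSCs, ST-HSCs and GMPs (edgeR adjusted p = 0.0363, 0.0414 and 0.0222; the calls against LT-HSCs and ST-HSCs were lost with a replicate block), although ST-HSC replicate 2, at 5.39 CPM, lay above CLP replicate 3, at 4.08 CPM. The Tet2-/- CLP mean was 38.5 CPM with replicate 2, which was at 107 CPM, and 15.8 CPM without it. Bcl2a1b is 1 of several near-identical copies on chromosome 9. The start of the coding sequence of 3 of them is shown because reads from the shared stretches cannot be assigned to a single copy. The sequences are from the mm10 genome with GENCODE vM21 gene models, 5′ to 3′, 120 coding bases each, with capitals at the 7 positions that differ among the copies (chr9:88957051-88957170 on the plus strand, chr9:89199360-89199479 on the plus strand and chr9:88731600-88731719 on the minus strand).
Bcl2a1a: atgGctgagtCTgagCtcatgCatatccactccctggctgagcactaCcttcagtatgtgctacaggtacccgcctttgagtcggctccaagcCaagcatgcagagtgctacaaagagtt
Bcl2a1b: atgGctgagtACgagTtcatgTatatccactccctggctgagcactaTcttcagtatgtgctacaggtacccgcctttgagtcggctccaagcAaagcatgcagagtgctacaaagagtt
Bcl2a1d: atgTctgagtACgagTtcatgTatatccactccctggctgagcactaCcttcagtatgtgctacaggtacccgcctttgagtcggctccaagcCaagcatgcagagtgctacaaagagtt

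Over the 519 coding bases, 12 positions differed among the 3 copies, and the longest stretch they shared was 217 bases. Bcl2a1b was 98.84% identical to Bcl2a1d and 97.88% to Bcl2a1a. How the authors' counting treated reads that fit several copies is not given in the sources used here, so the level of Bcl2a1b alone is uncertain. The summed copies stood at 30.2 ± 1.87 CPM in WT CLPs (SD, n = 4), of which Bcl2a1d made up 19.0 ± 4.42 CPM, against means of 1.17 to 3.23 CPM in WT CMPs, GMPs, LT-HSCs and ST-HSCs.

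Bak1, the only effector examined, had its highest mean in GMPs. WT GMPs gave 7.82, 11.2, 6.55 and 11.3 CPM against 1.35, 2.26 and 0.837 CPM in LT-HSCs and 0.596, 1.66 and 0.817 CPM in ST-HSCs. The GMP libraries all lay above every stem cell library. Against LT-HSCs the log2 fold change was 2.61 (edgeR adjusted p = 0.00309, SE 0.63) and against ST-HSCs 3.13 (edgeR adjusted p = 0.000593, SE 0.65). Means in WT CMPs, MEPs and CLPs were 2.91, 3.39 and 3.36 CPM, and GMPs were called above none of them (edgeR adjusted p = 0.108, 0.0715 and 0.0581). WT CLP replicate 2, at 6.99 CPM, lay above WT GMP replicate 4, at 6.55 CPM. In Tet2-/- mice Bak1 was higher in GMPs than in CMPs by 2.27 (log2 fold change, SE 0.56, edgeR adjusted p = 0.0102).

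Bid, whose protein links death receptors to mitochondria once a caspase has cleaved it, had its highest mean in GMPs as well. WT GMPs gave 189, 217, 174 and 196 CPM against 67.5, 54.3 and 56.6 CPM in LT-HSCs, with no overlap. The log2 fold change was 1.71 (edgeR adjusted p = 0.00967, SE 0.47). WT MEPs and CMPs lay between, at 143 ± 17.5 and 129 ± 10.9 CPM (SD, n = 4 each), and neither was called apart from its neighbours.

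The other BH3-only members showed less order among WT populations. Bad stayed within means of 21.6 to 32.2 CPM. Bcl2l11 spread from 1.41 to 54.6 CPM among the 4 WT CLP libraries. The WT LT-HSC libraries, at 5.73 CPM or less, lay below every WT CMP library and every WT ST-HSC library (10.7 to 34.6 CPM). Against LT-HSCs the log2 fold change was 2.38 in ST-HSCs (edgeR adjusted p = 0.622) and 1.99 in CMPs (edgeR adjusted p = 0.253), neither called. The 1 called pair of Bcl2l11 in WT was CLPs above LT-HSCs (edgeR adjusted p = 0.0309), a call lost with a replicate block. Bmf was at 0 in 29 of 46 libraries and reached 7.84 CPM at most. A level of 0 allows up to 3 counts, which is 0.0272 to 0.0943 CPM depending on the library, counting error only.

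**Figure D2:**
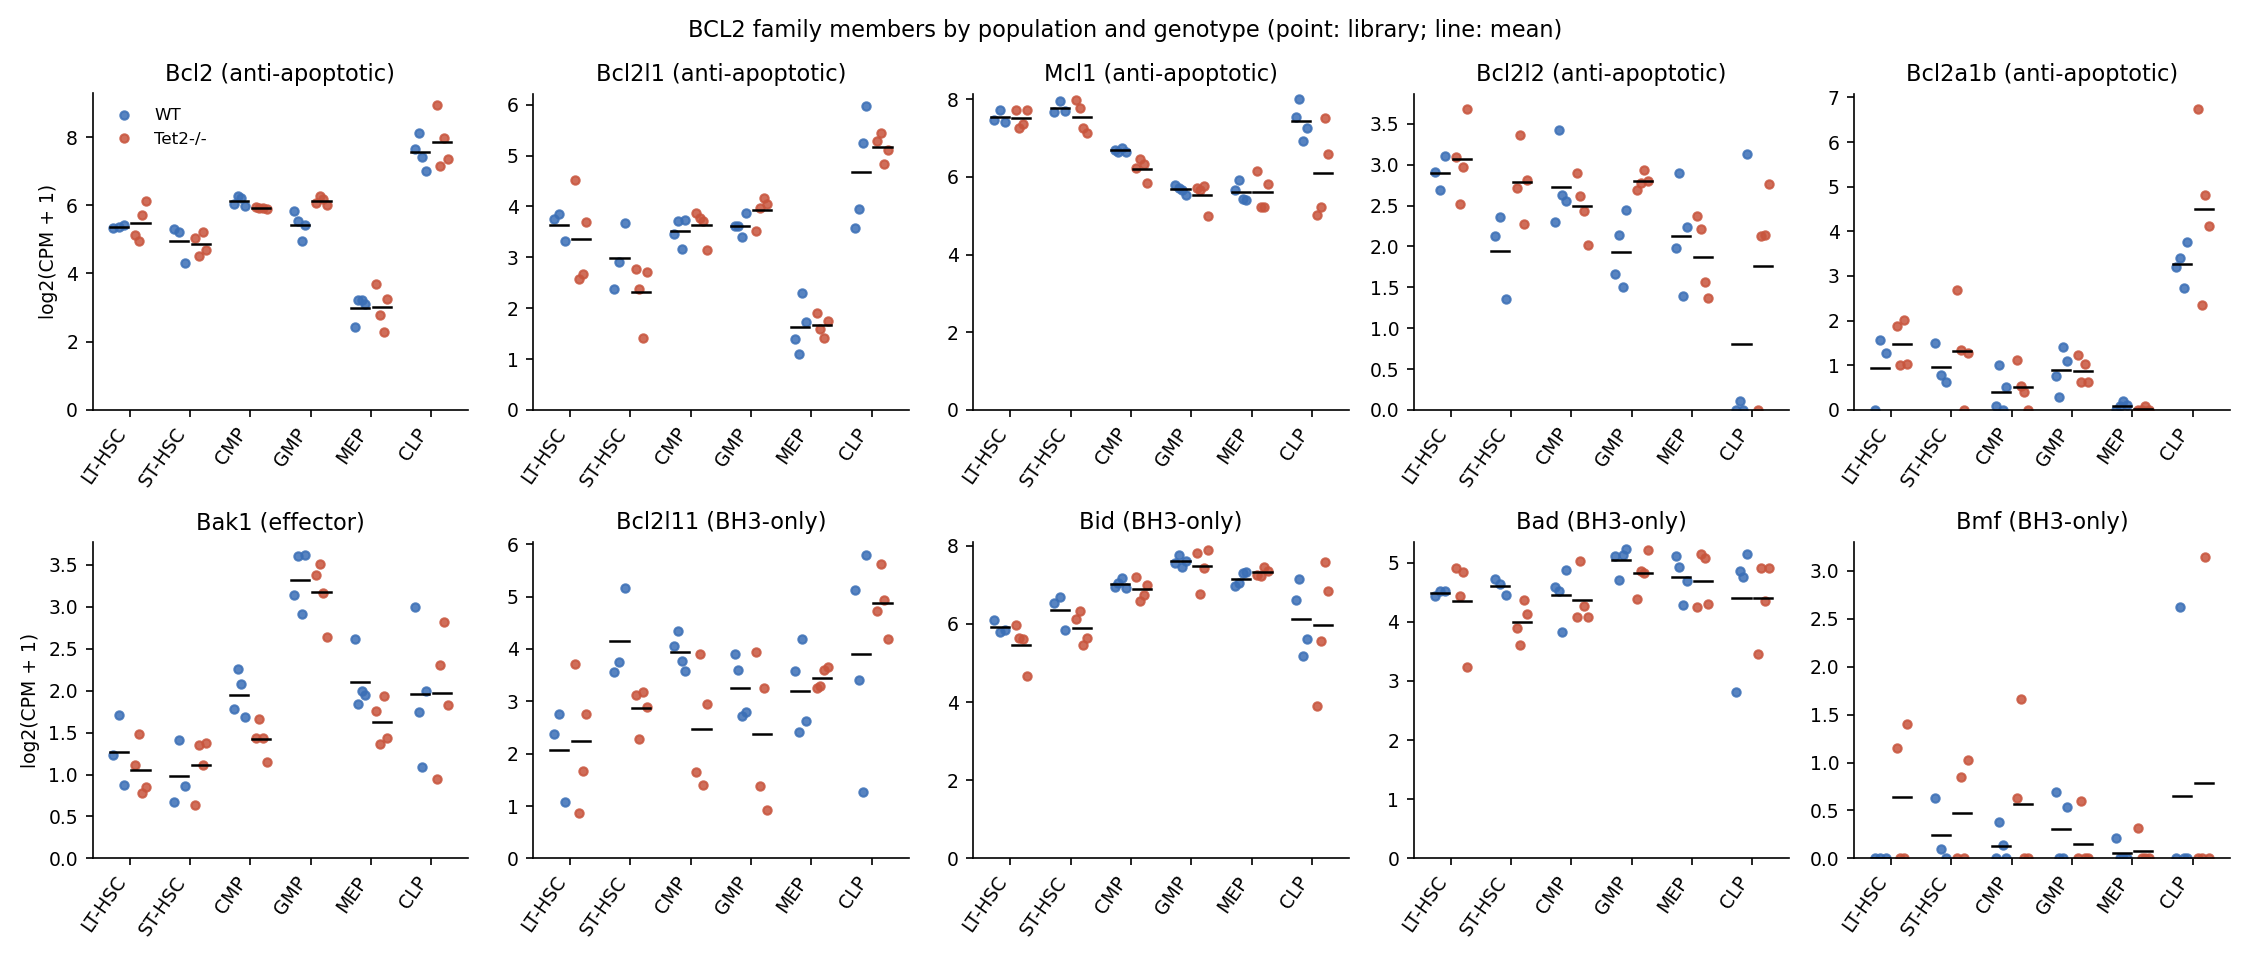
Level of each member in every library as log2(CPM + 1), by population (x axis), with WT in blue, Tet2-/- in red and black lines at the means; each panel has its own y axis starting at 0. Bcl2 and Bcl2l1 are lowest in MEPs, Mcl1 steps down from the stem cells to GMPs and MEPs, and Bak1 and Bid have their highest means in GMPs.

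Over all 15 pairs of populations and 10 members, edgeR called 33 of 150 comparisons in WT, or 22.0%, beside 11.5% over all genes and pairs. A call needed an adjusted p under 0.05 and at least 2-fold, and DESeq2 called 52 in WT. In Tet2-/- mice edgeR called 46, 30.7% beside 11.8%. Of these, 27 were called in both genotypes with the same direction, 81.8% of the WT calls and 58.7% of the Tet2-/- calls, and 0 with opposite directions. This overlap was not counted over all genes, and the calls of both genotypes came from the same fit. Pairs with CLPs made up 17 of the WT and 19 of the Tet2-/- calls. A fit without the CLP libraries leaves 10 pairs of populations. In it, 26 comparisons were called in WT and 32 in Tet2-/-, beside 14.1% and 16.0% of all genes and pairs. In the fit of all libraries the same 10 pairs held 16 WT and 27 Tet2-/- calls. The counts by pair that follow are from fits with the CLP libraries, and the calls gained without CLPs were not broken down by pair. A pair given as not called may therefore be among those gained. In WT, edgeR called no member between LT-HSCs and ST-HSCs, beside 0.0939% of all genes. It called none between either of these and CMPs, beside 3.46% and 3.04%, nor between CMPs and GMPs, beside 1.97%. With a replicate block, Bid was called between LT-HSCs and CMPs, Bcl2 and Mcl1 between ST-HSCs and CMPs, and Mcl1 between CMPs and GMPs. Against LT-HSCs, 3 members were called in GMPs, 3 in MEPs and 3 in CLPs, beside 12.3%, 9.69% and 22.0% of all genes. Against ST-HSCs, 2, 3 and 3 were called, beside 12%, 12.1% and 20%. MEPs and CLPs differed from CMPs in 3 members each, beside 4.88% and 16.5%, and from GMPs in 2 and 4, beside 12% and 15.8%. Between MEPs and CLPs 4 were called, beside 26.6%. With a replicate block 5 WT calls were lost, all in pairs with CLPs. These were Bcl2l1 and Bcl2l11 against LT-HSCs, Bak1 against ST-HSCs, and Bcl2l1 against CMPs and GMPs. The block also called Bid between LT-HSCs and MEPs and between ST-HSCs and GMPs. Without the block, Bcl2 was called in 9 pairs in WT and 10 in Tet2-/-, Bcl2l1 in 9 and 8, Mcl1 in 7 and 8, and Bak1 in 3 and 6. Bcl2a1b was called in 2 and 8, Bid in 2 and 5, Bcl2l11 in 1 and 1, and Bcl2l2, Bad and Bmf in 0.

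Compared per length, Mcl1 was the most abundant anti-apoptotic transcript in all 6 WT populations. Counts scaled to library size and exon length (RPKM) were used for comparisons between genes, with exon lengths from GENCODE vM21. Mcl1 made up 84.7% ± 1.35 of the summed RPKM of the 5 anti-apoptotic members in WT LT-HSCs (SD, n = 3), 90.1% ± 1.83 in ST-HSCs (n = 3) and 86.5% ± 2.99 in MEPs (n = 4). Its share was 72.0% ± 3.57 in CMPs, 62.1% ± 3.49 in GMPs and 56.2% ± 6.52 in CLPs (n = 4 each). The summed RPKM was 64.1 in LT-HSCs and 70.8 in ST-HSCs but 16.3 in MEPs. Bcl2 took 18.1% in CMPs, 19.7% in GMPs and 23.2% in CLPs, and at most 6.95% in the other WT populations. WT CLPs had the highest sum, 91.4 ± 20.8 RPKM, in which Bcl2a1b took 12.1% ± 3.55. With the other copies of A1 in the sum, A1 took 31.3% ± 3.91 and Mcl1 43.97% ± 6.24 in WT CLPs, and A1 took 14.6% ± 5.86 in WT GMPs (SD, n = 4 each), so the shares depend on how A1 is counted.

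In Tet2-/- mice Mcl1 took 82.6% of this sum in LT-HSCs, 87.5% in ST-HSCs and 87.95% in MEPs, against 66.8% in CMPs and 50.3% in GMPs. In Tet2-/- CLPs its mean share was 28.1% ± 17.5 (SD, n = 4). This mean rests in part on replicate 2, in which Mcl1 took 4.58% and Bcl2a1b 64.7%; without it the Mcl1 share was 35.99% ± 9.33 (SD, n = 3). With all copies of A1 in the sum, A1 took 48.9% ± 20.3 and Mcl1 22.4% ± 15.4 in Tet2-/- CLPs (SD, n = 4). The share of Bcl2 in GMPs ran from 14.5% to 23.5% in WT and from 26.2% to 32.7% in Tet2-/-, with no overlap. In GMPs the shares of Mcl1 (57.4% to 65.2% and 42.1% to 54.9%) and Bcl2l2 (1.84% to 4.29% and 4.47% to 6.30%) did not overlap either. The same held for Bcl2l1 in CMPs (4.09% to 6.74% and 6.76% to 8.72%) and Bcl2l2 in ST-HSCs (0.534% to 1.17% and 1.44% to 2.92%). It also held for Mcl1 in CLPs (49.9% to 62.3% and 4.58% to 44.4%). These are all the cases without overlap among the 5 members and 6 populations. The shares are descriptions and were not tested. Within a library they sum to the whole, so a rise in any share lowers the rest. In CPM, Mcl1 in GMPs overlapped between genotypes, at 45.5 to 54.7 in WT and 30.6 to 53.6 in Tet2-/-. Its log2 fold change there was -0.15 (edgeR adjusted p = 0.753), and that of Bcl2l1 in CMPs was 0.12 (edgeR adjusted p = 0.860).

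**Figure D3:**
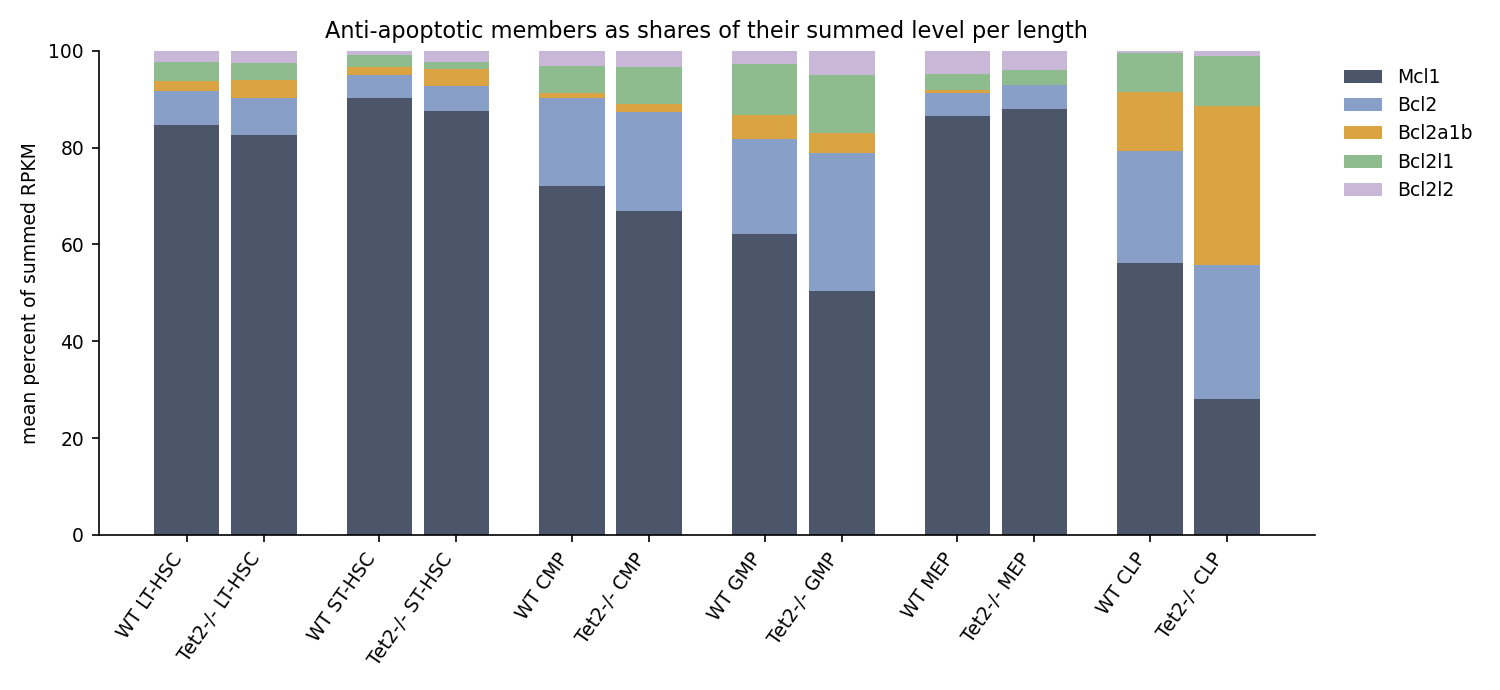
Mean percent of the summed RPKM of the 5 anti-apoptotic members taken by each, for the 12 groups (n = 3 in WT LT-HSC and WT ST-HSC, n = 4 elsewhere); bars are stacked means without error. Mcl1 takes 82.6% to 90.1% in LT-HSCs, ST-HSCs and MEPs of both genotypes, and Bcl2 takes more in CMPs, GMPs and CLPs.

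Within each population, Tet2-/- was then compared with WT. No member was called in any of the 6 populations at an adjusted p under 0.05 and at least 2-fold by edgeR, and none by DESeq2. All 10 members were tested in ST-HSCs, 8 in MEPs and 9 in each other population, the rest being too low. Over all genes edgeR called 0.0245%, 0.0185%, 4.57%, 4.37%, 4.36% and 0.00766% for LT-HSCs, ST-HSCs, CMPs, GMPs, MEPs and CLPs, in this order, and DESeq2 1.47%, 1.98%, 7.07%, 5.72%, 6.13% and 2.80%. At an unadjusted p under 0.05 the edgeR counts of members were 0, 1, 1, 2, 0 and 0, beside 5.16%, 6.13%, 19.1%, 17.3%, 16.4% and 3.65% of all genes. The median log2 fold change of the tested members was 0.01, -0.12, -0.22, -0.13, -0.01 and 0.18, and that of all genes tested lay between 0.03 and 0.07.

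The lowest edgeR adjusted p of a member was that of Bcl2 in GMPs. It was at 55.8, 45.6, 29.6 and 41.7 CPM in WT GMPs and at 65.7, 75.7, 72.4 and 63.7 CPM in Tet2-/- GMPs, so that 4 of 4 Tet2-/- libraries lay above the highest WT library. The log2 fold change was 0.65 (SE 0.17, 95% interval 0.32 to 0.99) with an edgeR adjusted p of 0.0463, under the threshold but short of the 2-fold minimum. Without that minimum it was the only member to pass by edgeR in any population, beside 6.56% of all genes in GMPs, 6.89% in CMPs and 5.66% in MEPs. DESeq2 gave an adjusted p of 0.0107. The exact two-sided permutation test gave p = 0.0286, which groups of 4 that do not overlap always give and which adds nothing to that observation. Across the alternatives the log2 fold change ran from 0.52 to 0.80 and the adjusted p from 0.0107 to 0.937, the direction being higher in each.

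Bcl2l2 was also higher in all 4 Tet2-/- GMP libraries, at 5.46, 5.87, 6.63 and 5.98 CPM against 2.15, 3.40, 1.83 and 4.44 CPM in WT. Its log2 fold change was 0.98 (SE 0.31), with an edgeR adjusted p of 0.105 and a DESeq2 adjusted p of 0.0177, short of 2-fold. Without WT replicate 5 it was 1.23 and was called by edgeR. The groups did not overlap for 2 of 9 members tested in GMPs, beside 13.3% of all genes. Mitochondrial transcripts took 3.64% to 4.598% of counts in WT and 4.74% to 5.09% in Tet2-/- GMPs. The 8 MEP markers summed to 83.9 to 111 CPM in WT and 115 to 171 CPM in Tet2-/- GMPs, with 6 of 8 higher in the mean. The 6 CMP markers summed to 1066 to 1143 CPM and 1188 to 1325 CPM, with 3 of 6 higher. The part of these in the GMP values was not tested.

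In CMPs, Mcl1 was at 103, 98.9, 107 and 98.0 CPM in WT and 74.5, 86.3, 79.2 and 56.4 CPM in Tet2-/- libraries, with no overlap. The log2 fold change was -0.47 (edgeR adjusted p = 0.0822, SE 0.14, DESeq2 adjusted p = 0.0216). Bcl2 and Bak1 did not overlap either, both lower in Tet2-/-, with log2 fold changes of -0.22 (edgeR adjusted p = 0.338, SE 0.11) and -0.79 (edgeR adjusted p = 0.336, SE 0.40). That made 3 of 9 members tested without overlap, beside 15.8% of all genes. The 8 MEP markers summed to 588 to 1649 CPM in WT CMPs and 2934 to 5853 CPM in Tet2-/- CMPs. Of these 8, Epor, Car1, Tfrc and Rhd were above WT in every library and 2 were below. The 8 CLP markers summed to 195 to 313 CPM and 125 to 158 CPM, with 0 of 8 higher in the mean, and mitochondrial transcripts took 5.94% to 6.57% and 7.85% to 8.37% of counts. In WT, Bcl2 and Mcl1 were lower in MEPs than in CMPs as given above, while Bak1 was not called between them and its mean was higher in MEPs (3.39 against 2.91 CPM). The part of these markers in the CMP values was not tested.

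In ST-HSCs, Bcl2l11 was at 10.7, 12.4 and 34.6 CPM in WT and 7.69, 3.85, 8.02 and 6.43 CPM in Tet2-/- libraries. The groups did not overlap, but the log2 fold change of -1.54 (edgeR adjusted p = 0.561, SE 0.51) was -0.80 without WT replicate 5. Bad was at 25.5, 24.0 and 20.8 CPM in WT and 13.9, 11.2, 19.8 and 16.5 CPM in Tet2-/- libraries, a log2 fold change of -0.58 (edgeR adjusted p = 0.912, SE 0.30). These were the 2 of 10 members without overlap in ST-HSCs, beside 8.14% of all genes. Mitochondrial transcripts took 8.73% to 9.02% of counts in WT and 10.0% to 13.1% in Tet2-/- ST-HSCs. The 8 LT-HSC markers summed to 462 to 500 CPM and 219 to 428 CPM, with 3 of 8 higher in the mean, and the 7 macrophage and monocyte markers to 15.9 to 28.1 CPM and 5.18 to 14.4 CPM, with 1 of 7 higher. Their part was not tested.

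LT-HSCs and MEPs had no member without overlap, beside 7.08% and 13% of all genes. In LT-HSCs the log2 fold change of Mcl1 was 0.01 (SE 0.21, 95% interval -0.40 to 0.41) and that of Bcl2 was 0.21 (SE 0.32, 95% interval -0.42 to 0.84). In MEPs that of Mcl1 was 0.03 (SE 0.24, 95% interval -0.44 to 0.50) and that of Bcl2 was 0.09 (SE 0.37, 95% interval -0.65 to 0.82).

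In CLPs the libraries spread widely, and no member tested was without overlap, beside 3.87% of all genes. Mcl1 was at 185, 254, 121 and 151 CPM in WT and 31.6, 36.3, 182 and 95.9 CPM in Tet2-/- CLPs, a log2 fold change of -1.04 (edgeR adjusted p = 1, SE 0.57). Fitting all 46 libraries together left the fold change at -1.04 and called it (edgeR adjusted p = 0.0419), and it was -0.77 without Tet2-/- replicate 2 and -1.72 without Tet2-/- replicate 4. Bcl2 was at 201, 276, 171 and 126 CPM in WT and 492, 141, 248 and 163 CPM in Tet2-/- CLPs. Its log2 fold change was 0.42 (SE 0.44), and -0.07 without Tet2-/- replicate 2. On library totals the Mcl1 means were 111 CPM in WT and 70.3 CPM in Tet2-/- CLPs, a narrower gap than with TMM (178 and 86.5 CPM) and under 2-fold, and the Bcl2 means were 119 CPM in WT and 245 CPM in Tet2-/- CLPs, a wider gap than with TMM (194 and 261 CPM), whose factors ran from 0.515 to 0.713 in WT and from 0.739 to 1.08 in Tet2-/- CLPs. Bcl2a1b was at 107, 4.08, 27.0 and 16.4 CPM in Tet2-/- CLPs, a log2 fold change of 2.08 (SE 0.95, DESeq2 adjusted p = 0.323). It was not called by edgeR either, and was 0.80 without Tet2-/- replicate 2. With the copies of A1 summed, the log2 fold change was 1.39 (SE 0.75), not called by edgeR. The 8 CLP markers summed to 145783 to 278526 CPM in WT and 2310 to 131631 CPM in Tet2-/- CLPs, with 6 of 8 higher in the mean in Tet2-/- and Rag1 above WT in every library. Mitochondrial transcripts took 12.5%, 7.82%, 3.11% and 4.23% of counts in Tet2-/- CLPs, against 2.41% to 4.58% in WT. GMP markers summed to 2.84, 12597, 2380 and 4339 CPM in Tet2-/- CLPs, against at most 3234 CPM in WT. Megakaryocyte markers summed to 0.156, 1495, 0.554 and 409 CPM, against at most 8.37 CPM in WT. The part of these in the CLP values was not tested.

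**Figure D4:**
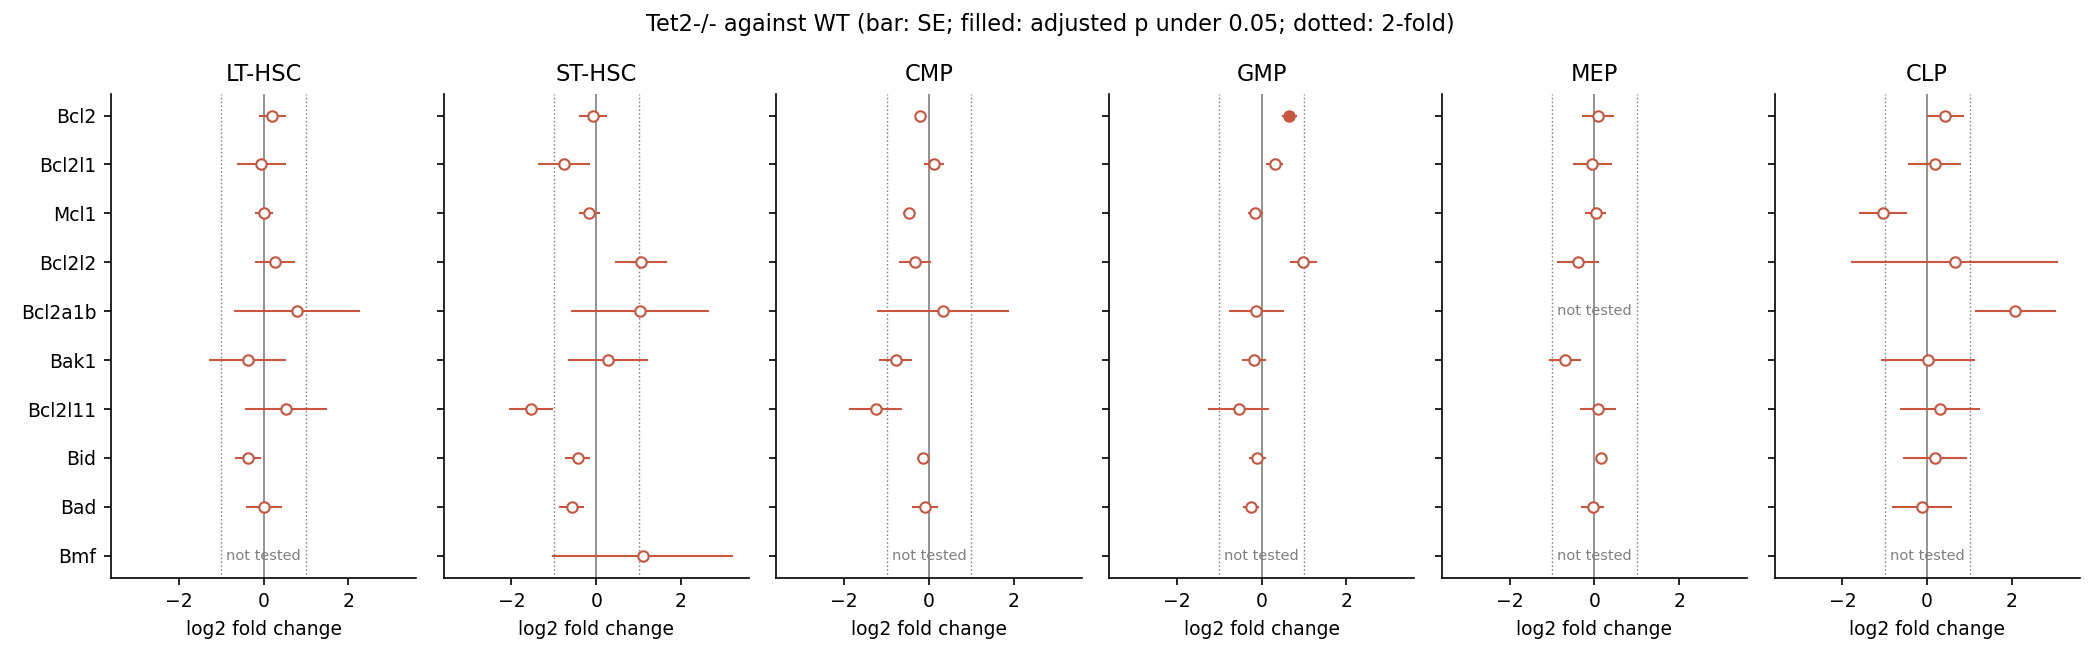
Log2 fold change of each member, Tet2-/- against WT, in the 6 populations (points), with bars of 1 SE from edgeR; filled points have an adjusted p under 0.05, and dotted lines mark 2-fold. The only filled point is Bcl2 in GMPs, at 0.65, short of the 2-fold line.

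Whether the Tet2-/- effect differed among populations was tested directly. No member passed the interaction test at an adjusted p under 0.05 (edgeR), beside 2.65% of all genes, and the lowest adjusted p was that of Mcl1 (0.654), or of Bcl2l2 without the CLP libraries (0.411). This test covers the 6 populations together, and no contrast of GMPs alone with the others was run. No member had a mean effect over the 6 populations that passed in the main edgeR fit, beside 6.94% of all genes. DESeq2 called 1 member, and 1 was called without WT replicate 5. The nearest in the main edgeR fit was Mcl1 with a mean log2 fold change of -0.30 (SE 0.13, unadjusted p = 0.0325 by edgeR, adjusted p = 0.223). Without the CLP libraries this was -0.13 (edgeR adjusted p = 0.508).

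The surrounding pathway was read from 5 lists of 58 genes, chosen with earlier results of these data known, so its counts are descriptions. All genes called in it were lower in Tet2-/-, and none was called in LT-HSCs, ST-HSCs or CLPs. Genes called higher were 0.654% of all genes in CMPs, 0.308% in GMPs and 0.147% in MEPs, none of them in these lists. Of 11 mitochondrial partners of the family, 3 fell in CMPs, GMPs and MEPs alike, beside 3.92%, 4.06% and 4.21% of all genes called lower: Mff, which recruits the fission GTPase DRP1 to mitochondria, Pgam5, a mitochondrial phosphatase, and Bag1, a co-chaperone that binds BCL2. Mff was at 52.0 to 92.1 CPM in WT and 11.4 to 19.3 CPM in Tet2-/- CMPs, a log2 fold change of -2.11 (edgeR adjusted p = 0.000682, SE 0.24). It fell by 2.46 in GMPs (edgeR adjusted p = 1.08e-05, SE 0.18) and by 2.49 in MEPs (edgeR adjusted p = 3.70e-05, SE 0.17) on the log2 scale. Pgam5 fell by 1.53, 1.88 and 1.17, and Bag1 by 1.35, 1.55 and 1.40, in CMPs, GMPs and MEPs. In each of these comparisons the WT and Tet2-/- libraries did not overlap.

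Of 15 regulators of BCL2 family proteins, 1 fell in CMPs, 2 in GMPs and 1 in MEPs, beside 3.92%, 4.06% and 4.21% of all genes called lower, so the counts of 1 are near the background. Pim3, a kinase of the family that phosphorylates BAD, was at 29.9 to 68.9 CPM in WT and 4.45 to 10.8 CPM in Tet2-/- GMPs, a log2 fold change of -2.79 (edgeR adjusted p = 0.000258, SE 0.33), and it fell by 1.55 in CMPs and by 1.05 in MEPs. The Pim3 call was lost in 4 of 11 alternative fits in CMPs and in 8 of 11 in MEPs, the replicate block among them, with adjusted p of 0.0607 to 0.103 and 0.0633 to 0.122 by edgeR. Pim1, a related kinase, was at 35.2 to 186 CPM in WT and 7.87 to 15.6 CPM in Tet2-/- GMPs and fell by 2.90 on the log2 scale (edgeR adjusted p = 0.00265, SE 0.47). Of 14 apoptosome genes and caspases, Endog, a mitochondrial nuclease, fell in GMPs by 1.40 (edgeR adjusted p = 0.0163, SE 0.30), a call lost in 4 of 11 alternative fits. It was 1 of 14, near the 4.06% of all genes called lower in GMPs. None of the 5 caspase inhibitors and none of the 7 or 8 tested of the 13 other BCL2 family genes was called.

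Patterns over the 12 group means were compared with 8852 other genes as a description. The groups share libraries' scaling, and the CLP groups sit at the end of several patterns. The closest to Bcl2 were Sla (Pearson r = 0.96, and 0.96 over the 10 groups without CLPs), Tcf4 (0.96 and 0.93) and Tpm4 (0.95 and 0.91). Those closest to Mcl1 were Insl6 (0.97 and 0.98), Ube2b (0.97 and 0.97) and Gm6485 (0.97 and 0.97). Bcl2l1 was nearest to Ece1, Il6st and Thbd (0.94 to 0.96, and 0.92 to 0.93 without CLPs), Bak1 to Keap1, Ide and Hmga1b (0.96 to 0.97, and 0.96 to 0.98) and Bid to Pprc1, Ass1 and Tbrg4 (all 0.97, and 0.97 to 0.98). For Bcl2a1b the likeness to Klrb1a and Igkv1-88 was 0.96 and 0.95 but 0.70 and 0.56 without CLPs, whereas that to Rbl2 was 0.96 and 0.94.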

How the data were processed

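The authors trimmed reads with Trim Galore, aligned them with HISAT2 to mm10 according to the study's methods (the submitters' notes list mm9 as well) and deposited read counts per gene; the counting program and annotation are not given in the sources used here. The submitters' notes also name DESeq2. Counts were used as deposited, and 9 further LT-HSC libraries in a separate table, which include Sting genotypes, were not analysed here. The members and gene lists were chosen with earlier results of these data known.

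Each population's WT and Tet2-/- libraries were filtered by filterByExpr, scaled by TMM and tested with the quasi-likelihood test of edgeR 4.0.16 (prior count 2; R 4.3.3), and Benjamini-Hochberg adjustment ran over all genes tested. A call needed an adjusted p under 0.05 and a 2-fold change. Populations, the interaction and the mean effect were tested in 1 fit of 12 groups and 46 libraries. Single members were also compared by an exact two-sided permutation test. Alternatives were DESeq2 1.42.0, RLE scaling, no low-count filter, a replicate block, 1 fit of all libraries, and each replicate left out; fits without CLPs, library totals, shares over all A1 copies and fits of the called pathway genes were added after seeing the data. All 10 members were named, with at most 4 called genes per pathway list and comparison, and the 3 genes most like each member that differed among WT populations. The tests were checked on simulated counts. The study counts its transcriptome replicates as mice; the labels give only replicate numbers, and whether populations with the same number came from 1 mouse is not given in the sources used here.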

Additional observations from a re-analysis of the deposited data

Results flagged for a closer look

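In 10 of 100 tests of a member in a group of 4 libraries, 1 library stood apart from the other 3 by Dixon's criterion. For 6 of them the other libraries were all at 0, and for Bcl2l2 they were at 0 or 3 counts, so that the criterion was met by construction. Chance gives about 1 in 20 where it is not. Mcl1 was at 30.6 CPM in Tet2-/- GMP replicate 5, below 50.0 to 53.6 CPM in the others. Bak1 was at 5.12 CPM in WT MEP replicate 2, above 2.60 to 3 CPM. Bad was at 31.8 CPM in Tet2-/- CMP replicate 3, above 16.0 to 18.2 CPM. Bcl2l2 was at 7.77 CPM in WT CLP replicate 5, above 0 to 0.0750 CPM.

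The 6 with the remaining libraries at 0 concerned low genes. Bcl2a1b was at 0.0604 CPM in Tet2-/- MEP replicate 4. Bmf was at 0.512 CPM in Tet2-/- GMP replicate 3, at 0.160 CPM in WT MEP replicate 2, at 0.246 CPM in Tet2-/- MEP replicate 2, at 5.15 CPM in WT CLP replicate 3 and at 7.84 CPM in Tet2-/- CLP replicate 4.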

How the results depend on the processing

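Of 224 counts recomputed under the alternatives, 201 were within 1.5 times the reported count. Genes called over the whole table between genotypes moved most. DESeq2 called 235 in LT-HSCs, 331 in ST-HSCs, 1235 in CMPs, 1049 in MEPs and 464 in CLPs, against 4, 3, 734, 651 and 1 by edgeR. A single fit of all 46 libraries called 20, 21, 285, 219, 423 and 1477 from LT-HSCs to CLPs, against 723 in GMPs by the separate fit. Leaving out 1 replicate gave 0 to 1 in CLPs. The causes were not tested.

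Members called between genotypes numbered 1 in GMPs without the 2-fold minimum (Bcl2) and 0 to 1 when 1 replicate was left out (Bcl2l2 without WT replicate 5), and 1 in CLPs in the single fit (Mcl1). DESeq2 called 52 WT pairs against 33. For the mean effect, DESeq2 called 1 member and leaving out a replicate number 0 to 1 (without WT replicate 5); for the interaction this was 0 to 1 (without Tet2-/- replicate 4). On library totals the WT CLP means of Bcl2 and Mcl1 were 119 and 111 CPM. Of 686 alternative fold changes of 54 member results, 71 had the opposite sign, none called. Of 154 alternative fits of the 14 called pathway results, 138 still called them and 0 changed sign; the losses were Pim3 in CMPs (4 fits) and MEPs (8) and Endog in GMPs (4).

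Replicate numbers were shared between groups, but same-numbered WT and Tet2-/- libraries correlated at -0.078 to 0.140 in their deviations from the group means, so they were not treated as pairs. Between populations of a genotype the range was -0.085 to 0.186 in WT (33 of 51 best matches shared the number) and -0.068 to 0.363 in Tet2-/- (36 of 60). Every same-numbered pair exceeded 0.1 only between CMPs and GMPs (0.131 to 0.296) and between CMPs and MEPs (0.174 to 0.266) of Tet2-/- mice, where the block changed no member's call. With a replicate block, 2 genes were called in LT-HSCs and 0 in CLPs, 34 WT pairs of populations were called (6 gained, 5 lost, the latter all with CLPs) and 36 Tet2-/- pairs (10 lost, 6 with CLPs: Mcl1, Bak1 and Bcl2a1b against LT-HSCs and ST-HSCs), and 6 members differed among populations in each genotype (Bcl2l11 in Tet2-/- adjusted p = 0.0811 by edgeR). CLP results are limited by the spread between those libraries, and Bmf and Bcl2a1b by counts near 0.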
